A study of Mus musculus with 2 samples.

Results

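The genes of the angiotensin system were examined in the mouse adrenal gland: Agt, Ren1, Ace, Agtr1a, Agtr1b, Agtr2, Mas1, Atp6ap2 and Agtrap. They were chosen by symbol, each symbol matched 1 gene identifier in the deposited tables, and the 9 genes are 9 of 55536 annotated genes and of 22015 nuclear protein-coding genes. Total RNA had been sequenced from adrenal glands of male B6CASTF1/J mice, hybrids of an inbred laboratory strain and a wild-derived one, at an age of 25 days. The 2 libraries, each from 300 ng of RNA, form 1 group with no second condition and no treatment or transgene in the labels, so levels, transcripts and the spread between libraries are what the data can give. The biosample labels name different animals for replicate 1 and replicate 2, but the library labels name a single animal and the donor label is shared. Whether the spread is one between animals can therefore not be told. Replicate 1 held 34987784 counts on annotated genes and replicate 2 held 34835107.

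The system makes a blood-pressure hormone by stepwise cleavage. Agt encodes angiotensinogen, the precursor protein, which is secreted mainly by the liver. Renin, encoded by Ren1, cuts it to angiotensin I, and the converting enzyme encoded by Ace trims that to angiotensin II. Angiotensin II acts on AT1 receptors, which in mice come from the paired genes Agtr1a and Agtr1b, and on the AT2 receptor encoded by Agtr2. In the outer zone of the adrenal cortex, the zona glomerulosa, AT1 signalling drives aldosterone synthesis. Mas1 encodes a receptor for a shorter angiotensin peptide, Atp6ap2 encodes the prorenin receptor, which is also an accessory protein of the vacuolar proton pump, and Agtrap encodes a protein that binds AT1 and promotes its internalization.

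Markers of the labelled tissue were present, and so were markers of neighbouring tissues. All 7 cortex markers and all 6 chromaffin markers reached a length-scaled level of 1 TPM (a transcript's share of all listed transcripts, corrected for length) in each library, led by Hsd3b1 and Star in cortex and by Chgb and Chga in chromaffin cells. Liver markers summed to 109 TPM in replicate 1 and 20461 TPM in replicate 2. Skeletal muscle markers, led by Acta1 and Mylpf, summed to 1196 TPM in replicate 1 and 1.81 TPM in replicate 2. White adipocyte markers (highest Fabp4 and Car3) summed to 2335 and 1955 TPM in replicates 1 and 2, and brown adipocyte markers (highest Cox8b and Ucp1) to 1365 and 935 TPM. The sums were 91.5 and 51.5 TPM for smooth muscle and pericytes, 61.2 and 74.3 TPM for macrophages, and 276 and 261.1 TPM for capsule and stroma. Kidney and testis markers were at or near 0, with sums of 0.46 and 0.31 TPM for kidney and no counts on any of the 5 testis genes. In bulk tissue such as this, fewer cells of a type and less RNA per cell cannot be told apart.

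Of the 9 genes, 7 were detected, meaning that they reached 1 TPM in each library in the first of the 2 deposited quantifications. Among all annotated genes that share was 23.6%, and among nuclear protein-coding genes it was 54.1%. Ren1 reached a TPM of 1 in replicate 1 but not in replicate 2, and Mas1 did so in neither. By mean TPM the order was Agtr1a, Agt, Agtrap, Atp6ap2, Agtr2, Ace, Agtr1b, Ren1 and Mas1. Only 2 of the 8 steps in that order were clear of the spread between the libraries, those from Agtr2 down to Ace and from Ren1 down to Mas1. In the second quantification the order was the same and 5 steps were clear, with Agtr1a above Agt, Agtrap above Atp6ap2 and Atp6ap2 above Agtr2 added.

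**Figure D1:**
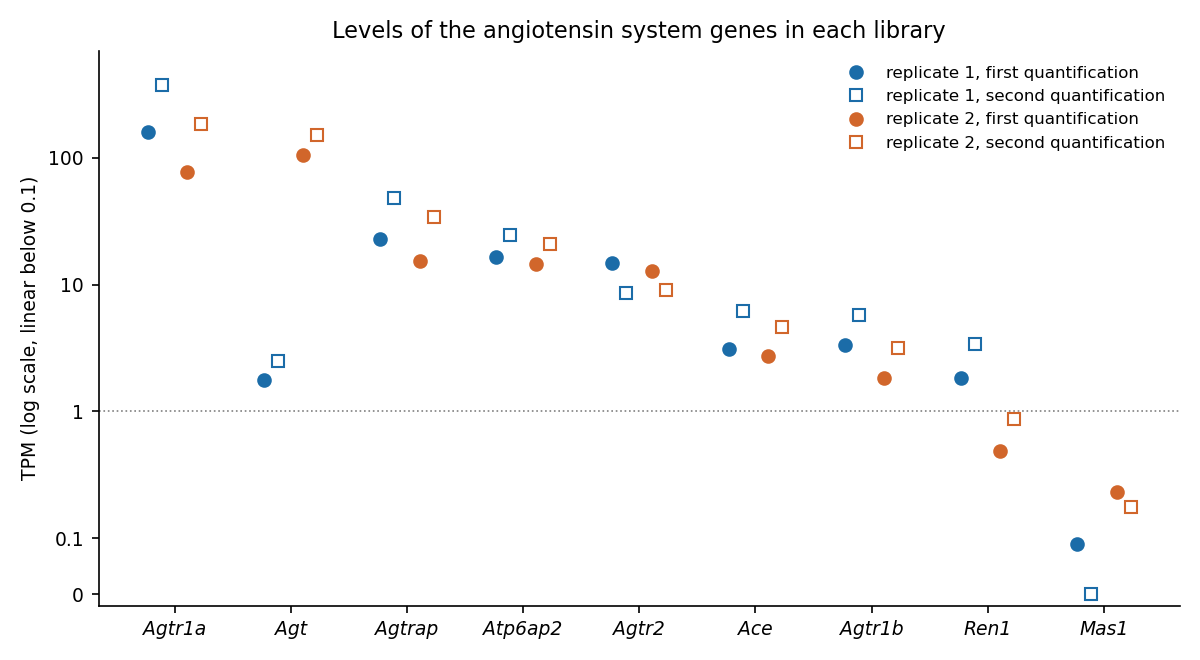
TPM of each gene (logarithmic axis, linear below 0.1) in replicate 1 and replicate 2, as filled circles for the first quantification and open squares for the second, with a dotted line at 1 TPM. Agtr1a was high in both libraries, Agt had 1.78 TPM in replicate 1 against 105 TPM in replicate 2, and Mas1 was below 1 TPM throughout.

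Agt, the precursor (ENSMUSG00000031980.9, mm10 chr8:124556534-124569706, minus strand), was the member with the widest gap between the libraries. It had 109 counts and 1.78 TPM in replicate 1, and 6412 counts and 105 TPM in replicate 2. Replicate 1 was the low library and replicate 2 the high one, 59.3-fold apart in TPM. The exact Poisson interval for counting error was 1.46 to 2.15 TPM in replicate 1 and 102.9 to 108 TPM in replicate 2, both at 95%. In rank, Agt lay above 48.5% of nuclear protein-coding genes in replicate 1 and above 97.6% in replicate 2. The mean, 53.6 TPM, was smaller than its SD of 73.3 TPM (n = 2), and no single level is given for it.

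The liver marker genes moved the same way between the libraries as Agt. All 8 were at least 2-fold lower in replicate 1, against 10.3% of all genes compared in the scaled counts given further on. Alb, the gene of serum albumin, had 16.3 TPM there against 11949 TPM in replicate 2. Apoa2, an apolipoprotein gene, had 2.97 TPM there against 2362 TPM. Most of the liver marker sum of replicate 1 was Cyp2e1, a cytochrome P450 gene named after its value was seen, at 83.4 TPM. Agt amounted to 16.3 TPM per 1000 TPM of summed liver markers in replicate 1 and to 5.15 in replicate 2. Without Cyp2e1, an alternative chosen after seeing the data, the other 7 liver markers summed to 26.1 TPM in replicate 1, against 19744 TPM in replicate 2. On that base Agt amounted to 68.2 and 5.34 TPM per 1000 TPM of them. Brown and white adipocyte markers, from cells known to make angiotensinogen, were not higher in replicate 2 as sums. At least 2-fold lower in replicate 1 were 1 of 5 brown and 1 of 7 white adipocyte markers, against the same 10.3%. The part of liver or adipocyte RNA in the level of Agt was not tested.

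Ren1, renin (ENSMUSG00000070645.5, chr1:133350510-133360325, plus strand), had 94 counts and 1.84 TPM in replicate 1 and 25 counts and 0.49 TPM in replicate 2. Replicate 1 was the high library for renin, 3.76-fold in TPM, opposite to Agt. The counting intervals, 1.49 to 2.25 TPM and 0.32 to 0.72 TPM, were far apart. The ratio of Ren1 to Agt in TPM was 1.03 in replicate 1 and 0.00465 in replicate 2. Renin is best known from the kidney, and 4 of 8 kidney markers had 0 counts in both libraries: Umod, Slc12a1, Slc34a1 and Kap, where 3 counts would have been at most 0.182 TPM. The kidney marker with the highest level was Aqp2, at 0.40 and 0.27 TPM. All 6 skeletal muscle markers were at least 2-fold higher in replicate 1, as Ren1 was, with log2 ratios of 7.70 to 12.51. Of 7 smooth muscle and pericyte markers, 1 was at least 2-fold higher there, against 3.86% of all genes compared. The log2 ratios of those 7 ran from -0.25 to 2.26, with a median of 0.07. The top value was that of Des, and the next was 0.39, that of Tagln. Per 1000 TPM of summed cortex markers, those of the labelled tissue, Ren1 was at 0.149 TPM in replicate 1 and 0.072 in replicate 2. The part of these tissues in the level of Ren1 was not tested. All Ren1 counts of both quantifications fell on Ren1-201, the long transcript of 1592 nt, and none on the short model Ren1-202.

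The start regions of Agt and Ren1 are shown here because these are the members at least 2-fold apart between the libraries in the TMM-scaled counts given further on. By TPM alone Agtr1a was also 2.04-fold apart. Each runs from 250 bases before to 50 bases after the start in RefSeq on GRCm38.p6, reads in the direction of the gene, and has capitals for the letters TATAAA. Agt is at chr8:124569657-124569956 on the minus strand, and Ren1 at chr1:133350424-133350723 on the plus strand.
Agt: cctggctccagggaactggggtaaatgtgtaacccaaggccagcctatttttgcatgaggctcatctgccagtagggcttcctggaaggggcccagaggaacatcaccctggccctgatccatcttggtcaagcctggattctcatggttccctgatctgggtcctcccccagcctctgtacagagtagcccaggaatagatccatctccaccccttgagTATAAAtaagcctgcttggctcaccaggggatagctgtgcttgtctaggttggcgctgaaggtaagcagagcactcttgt
Ren1: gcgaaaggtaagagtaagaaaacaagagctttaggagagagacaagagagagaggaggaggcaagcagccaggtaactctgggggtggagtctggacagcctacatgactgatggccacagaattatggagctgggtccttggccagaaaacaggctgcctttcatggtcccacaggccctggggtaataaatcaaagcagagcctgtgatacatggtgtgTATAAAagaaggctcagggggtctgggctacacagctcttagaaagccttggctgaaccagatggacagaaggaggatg
In Agt the letters began at -30 from the start and in Ren1 at -29. The RefSeq start of Ren1 lay 164 bases inside the first base of Ren1-201, while that of Agt matched Agt-201. The RefSeq table gave windows for 8 of the 9 genes, 9 windows in all because Ace has a pair. The gene without a window was Agtr1a, which was therefore not searched. Of these, 3 held TATAAA in the sense direction, those of Agt, Ren1 and Agtr1b, against 8.32% of 32851 listed windows of that length. On either strand it was 4 of 9 windows against 13.6%, the added one being that of Ace. The letters CAAGGTCA, a binding element of the steroidogenic factor NR5A1, were in none of the 9 on either strand and in 1.56% of all windows. These are matches of letters and do not show binding.

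Ace, the converting enzyme (ENSMUSG00000020681.14, chr11:105967945-105989964, plus strand), was low and even. It had 486 counts and 3.12 TPM in replicate 1 and 400 counts and 2.73 TPM in replicate 2, a mean of 2.92 ± 0.276 TPM (SD, n = 2). This placed it above 53.9% and 51.7% of nuclear protein-coding genes. ACE is abundant on endothelium, and endothelial markers, led by Egfl7 and Plvap, summed to 261.2 TPM in replicate 1 and 209 TPM in replicate 2. Per 1000 TPM of these markers Ace was at 11.9 and 13.1 TPM. Gm11651, an antisense gene that overlaps Ace, had 0 counts in both libraries.

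Ace has 2 listed start sites. The first gives somatic ACE, with a pair of catalytic domains, and the internal one gives the shorter testis form, with a single catalytic domain. The start windows are shown to set them side by side, chr11:105967698-105967997 for the first and chr11:105974939-105975238 for the internal one, both on the plus strand and with no sense TATAAA to capitalize.
Ace: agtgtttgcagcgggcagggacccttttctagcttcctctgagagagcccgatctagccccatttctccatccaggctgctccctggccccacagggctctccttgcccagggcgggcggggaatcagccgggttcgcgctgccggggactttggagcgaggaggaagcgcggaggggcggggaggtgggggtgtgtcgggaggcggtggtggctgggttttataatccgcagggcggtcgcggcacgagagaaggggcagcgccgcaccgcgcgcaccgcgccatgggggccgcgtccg
Ace (internal): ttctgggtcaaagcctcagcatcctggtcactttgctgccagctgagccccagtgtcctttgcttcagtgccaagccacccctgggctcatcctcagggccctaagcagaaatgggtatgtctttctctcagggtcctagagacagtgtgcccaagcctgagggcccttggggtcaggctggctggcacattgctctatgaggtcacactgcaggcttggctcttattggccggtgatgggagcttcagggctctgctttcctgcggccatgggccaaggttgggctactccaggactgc
The transcript nearest the first window was Ace-201 (4906 nt), which began 3 bases from its start, and the one nearest the internal window was Ace-202 (2418 nt), 19 bases away. Ace-201 took 80.5% of the gene's TPM in replicate 1 and 71.0% in replicate 2 in the first quantification, and 62.8% and 66.9% in the second. Ace-202 took 0% and 9.58% in the first quantification, from 0 and 20.6 counts, and 0% in both libraries in the second. The deposited posterior SD of those 20.6 counts was 10.01. Of its 2388 stretches of 31 bases, 196 were in no other Ace transcript. Ace-203 (3649 nt, starting between the windows) took 19.5% and 19.4% in the first quantification and 18.1% and 18.7% in the second. The non-coding Ace-204 (695 nt) took 0% in the first and 19.1% and 14.4% in the second.

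Agtr1a (ENSMUSG00000049115.15, chr13:30336441-30382867, plus strand), the main AT1 receptor gene, had the highest mean TPM of the members, although Agt was above it in replicate 2. It had 10209.99 counts and 159 TPM in replicate 1 and 5018.89 counts and 78.0 TPM in replicate 2. It ranked 306th and 723rd among nuclear protein-coding genes, above 98.6% and 96.7% of them. Replicate 1 was the high library, and in the second quantification the levels were 379 and 187 TPM. Agtr1b (ENSMUSG00000054988.9, chr3:20314473-20367177, minus strand), its paralog, had 218.01 counts and 3.35 TPM in replicate 1 and 126.11 counts and 1.82 TPM in replicate 2. Both AT1 genes were thus lower in replicate 2 and far from each other in level.

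The gap between the paralogs was 47.5-fold in replicate 1 and 42.9-fold in replicate 2, a log2 ratio of 5.50 ± 0.10 (SD, n = 2), far beyond the difference between replicates. In the second quantification it was 65.5-fold and 59.4-fold. The paralogs are similar enough to ask whether reads could be exchanged. Their coding sequences, 1077 bases each without the stop codon, were identical at 978 bases, or 90.8%. The 150 bases with the most differences, coding positions 922 to 1071 near the receptor's tail, are shown with the 25 differing bases in capitals, from mm10 chr13:30381875-30382024 on the plus strand and chr3:20315370-20315519 on the minus strand.
Agtr1a: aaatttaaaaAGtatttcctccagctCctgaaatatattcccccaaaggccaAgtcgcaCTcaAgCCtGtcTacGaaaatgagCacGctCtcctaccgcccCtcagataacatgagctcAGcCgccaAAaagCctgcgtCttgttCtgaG
Agtr1b: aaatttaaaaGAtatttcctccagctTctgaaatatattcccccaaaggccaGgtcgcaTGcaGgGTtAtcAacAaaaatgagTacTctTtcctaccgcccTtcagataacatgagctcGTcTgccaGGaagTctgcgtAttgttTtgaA
Over all transcripts of Agtr1b, 93 of 2136 distinct stretches of 31 bases also occurred in Agtr1a, or 4.35%. The deposited posterior SD of the counts, which measures reads shared between genes, was 0.14 counts in replicate 1 and 0.34 counts in replicate 2 for both genes. Against 218.01 and 126.11 counts on Agtr1b, the reads were divided between the paralogs with little ambiguity. Gm48161, a transcript on the same strand inside an Agtr1a intron, was at 1.33 and 0.63 TPM.

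Agtr2, the AT2 receptor gene (ENSMUSG00000068122.10, chrX:21484544-21489164, plus strand), was the second receptor by level. It had 650 counts and 14.9 TPM in replicate 1 and 706 counts and 12.8 TPM in replicate 2, a mean of 13.9 ± 1.48 TPM (SD, n = 2). In the second quantification it was at 8.62 and 8.99 TPM. Of the summed TPM of the 3 angiotensin II receptor genes, Agtr1a held 89.7% in replicate 1 and 84.2% in replicate 2, Agtr2 held 8.41% and 13.8%, and Agtr1b held 1.89% and 1.97%. The second quantification gave Agtr1a 96.3% and 93.9%, Agtr2 2.19% and 4.53% and Agtr1b 1.47% and 1.58%. Agtr1a was 10.7-fold and 6.09-fold above Agtr2 in the first quantification and 44.0-fold and 20.7-fold in the second. In gene TPM the direction thus held and the size did not. These sums include short partial or non-coding models, described further on. Of the transcripts with the whole coding sequence, Agtr1a-201 was at 139 and 68.9 TPM in the first quantification and 214 and 102 TPM in the second. Agtr2-201 was at 5.33 and 6.08 TPM in the first and 8.62 and 8.99 TPM in the second.

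Mas1 (ENSMUSG00000068037.11, chr17:12841079-12868143, minus strand) was barely detectable. It had 1 count in replicate 1 and 8 counts in replicate 2, or 0.09 TPM (95% exact Poisson interval 0.0023 to 0.501) and 0.23 TPM (0.0993 to 0.453). The second quantification listed it at 0 and 0.17 TPM. The antisense gene Airn overlaps it and was at 2.82 and 2.86 TPM, and whether counting used the strand is not given in the sources used here. The miRNA gene Gm24085, on the same strand, had 0 counts in both. The counting intervals of the libraries overlapped in TPM, while that of the log2 ratio of TMM-scaled counts, -8.72 to -0.35, did not reach 0. With fewer than 10 counts in total, Mas1 was left out of the ratios between libraries given further on.

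Atp6ap2, the prorenin receptor (ENSMUSG00000031007.2, chrX:12587801-12617049, plus strand), was close between the libraries. It had 1234 counts and 16.5 TPM in replicate 1 and 1071 counts and 14.5 TPM in replicate 2, a mean of 15.5 ± 1.45 TPM (SD, n = 2). Agtrap (ENSMUSG00000029007.8, chr4:148077061-148088031, minus strand) had 2112 counts and 22.9 TPM in replicate 1 and 1583 counts and 15.5 TPM in replicate 2, a mean of 19.2 ± 5.23 TPM (SD, n = 2). Both genes were thus in the upper part of the protein-coding range, at 80.6% and 79.2% for Atp6ap2 and 86.2% and 80.5% for Agtrap. Agtr1a exceeded Agtrap, the gene of its binding partner, 6.95-fold in replicate 1 and 5.04-fold in replicate 2.

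**Figure D2:**
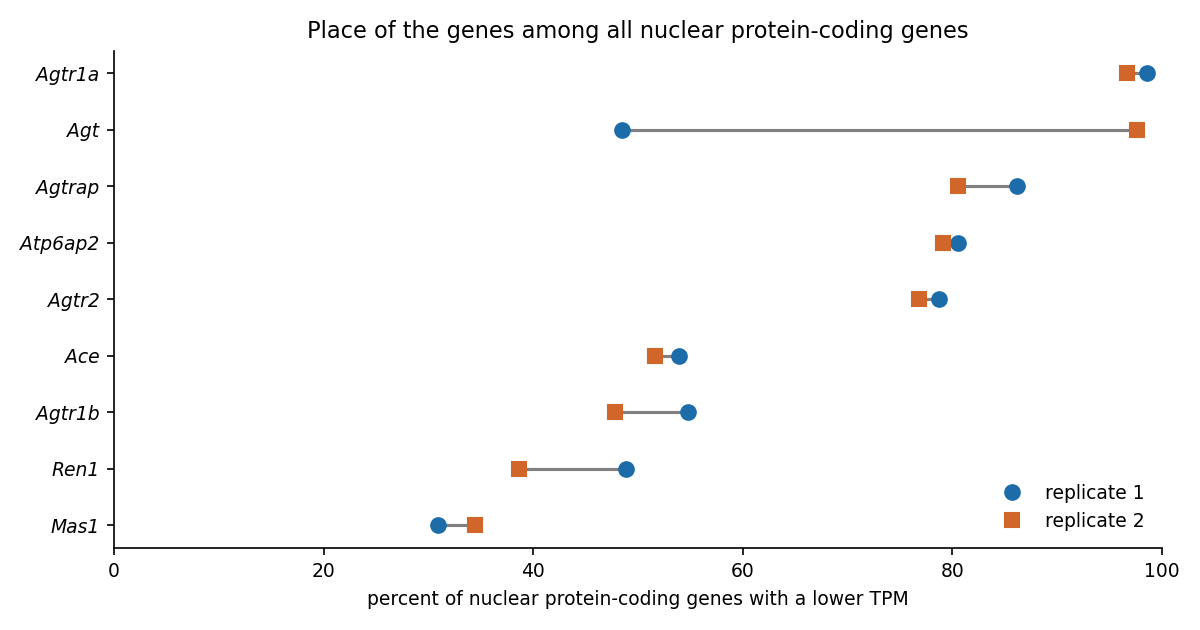
Percent of 22015 nuclear protein-coding genes with a lower TPM than each gene, with circles for replicate 1, squares for replicate 2 and a line between them. Agtr1a was above 98.6% and 96.7% of genes, while Agt was above 48.5% in replicate 1 and 97.6% in replicate 2.

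The libraries were then set against each other gene by gene, as replicate 1 over replicate 2, on counts scaled by TMM, a method that centres most genes on no difference. With 1 library on each side there is no replicate check and no p-value, and the 95% exact Clopper-Pearson intervals cover counting error only. Of the 8 members with at least 10 counts in total, 1 was at least 2-fold higher in replicate 1 (Ren1), against 3.86% of 19801 genes, and 1 was at least 2-fold lower (Agt), against 10.3%. The log2 ratio of Ren1 was 1.66 (interval 1.01 to 2.36) and that of Agt was -6.13 (-6.41 to -5.85). The gap of Agt exceeded that of 96.6% of genes compared, and the gap of Ren1 that of 91.3%. The median over the 8 members was 0.10 and over all genes compared -0.0024. With total counts the backgrounds were 5.66% higher and 8.62% lower, with DESeq2 size factors 3.95% and 10.2%, with spike-in totals 7.29% and 7.88%, and with the second quantification 3.8% and 9.95%. A filter of 50 counts gave 1.8% and 8.5%, and the ratio of log2(TPM + 1) gave 1.29% and 4.95%.

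The receptors did not share 1 ratio. Agtr1a was at 0.78 (0.73 to 0.83) and Agtr1b at 0.54 (0.22 to 0.87), so the paralogs overlapped in their counting intervals. Agtr2 was at -0.37 (-0.52 to -0.21), below both. When spike-in totals set the scale, Agtr2 was at 0.000086, Agtr1a at 1.14 and Agtr1b at 0.91, a shift that all genes share. Agtrap was at 0.17 (0.07 to 0.26), Ace at 0.03 (-0.16 to 0.23) and Atp6ap2 at -0.04 (-0.16 to 0.08). Genes whose mean reached 1 TPM had a median ratio of 0.0056 under TMM, 0.25 on total counts and 0.37 on spike-in totals. A scaling moves every gene by the same amount, so each member has 1 ratio relative to that median whichever scaling is used. It was 0.77 for Agtr1a, 0.54 for Agtr1b, 0.16 for Agtrap, 0.03 for Ace, -0.05 for Atp6ap2 and -0.37 for Agtr2. Against a ratio of 0, the shift alone put Agtr1a past 2-fold on total counts (1.02) and on spike-in totals, and Atp6ap2 above 0 at 0.20 and 0.32.

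**Figure D3:**
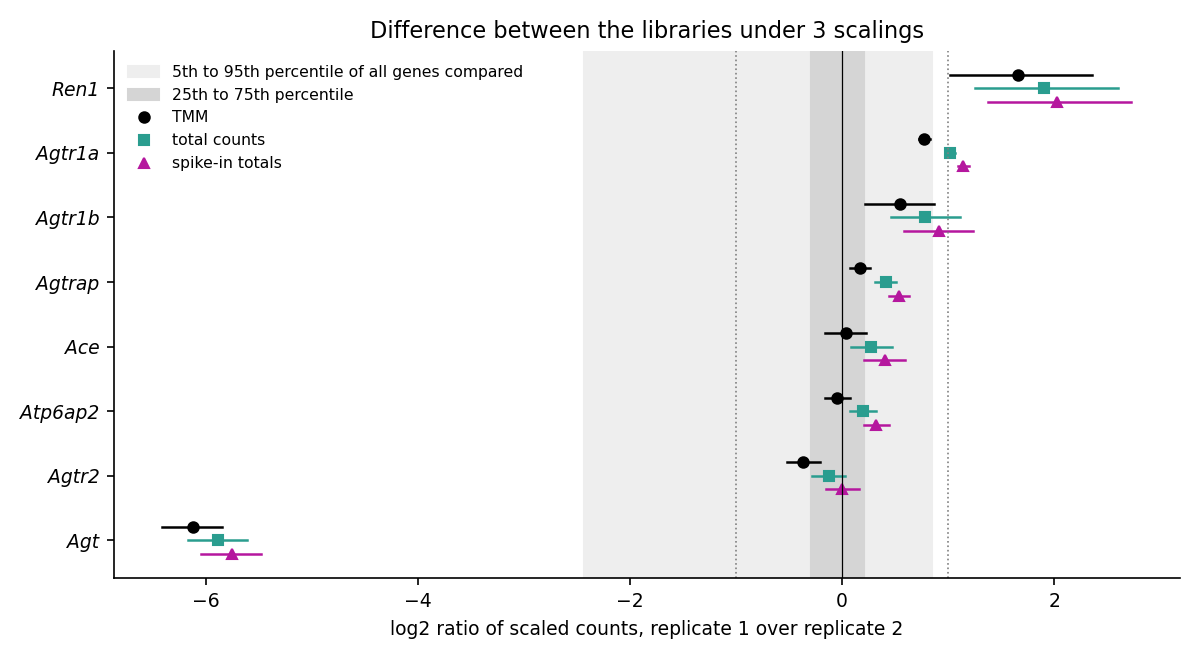
Log2 ratio of scaled counts, replicate 1 over replicate 2, for the 8 members with at least 10 counts, under TMM (circles), total counts (squares) and spike-in totals (triangles), with 95% exact counting intervals as lines, dotted lines at 2-fold and bands for the middle of all 19801 genes. Ren1 lay to the right at 1.66 and Agt to the left at -6.13 with TMM.

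The cortex and chromaffin markers had ratios on the side of the AT1 genes. The 7 cortex markers were all above 0, between 0.39 and 0.79 with a median of 0.63, and the 5 zona glomerulosa markers were between -0.01 and 0.58 with a median of 0.29. The 6 chromaffin markers were between 0.23 and 0.78 with a median of 0.33, while the 7 capsule and stroma markers were between -0.35 and 0.48 with a median of -0.01. Medians of other lists lay on both sides of 0, at 0.30 for brown adipocyte, 11.53 for skeletal muscle, -0.53 for macrophage and -9.80 for liver markers. The side of the AT1 genes was thus not particular to adrenal cells. Kcnk3, a glomerulosa potassium channel, was at 306 and 212 TPM, and Dab2, a glomerulosa adaptor protein, at 190 and 104 TPM in replicates 1 and 2. Per 1000 TPM of summed cortex markers, Agtr1a was at 12.9 TPM in replicate 1 and 11.5 in replicate 2, and Agtr1b at 0.271 and 0.268. Per 1000 TPM of summed glomerulosa markers Agtr1a was at 272 and 204. Agtr2 stood at 9.31 and 11.8 TPM per 1000 TPM of chromaffin markers, cells known to carry AT2 in the rat. Its log2 ratio of -0.37 lay on the other side of 0 from all 6 chromaffin markers. The part of the cell mixture in these ratios was not tested.

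**Figure D4:**
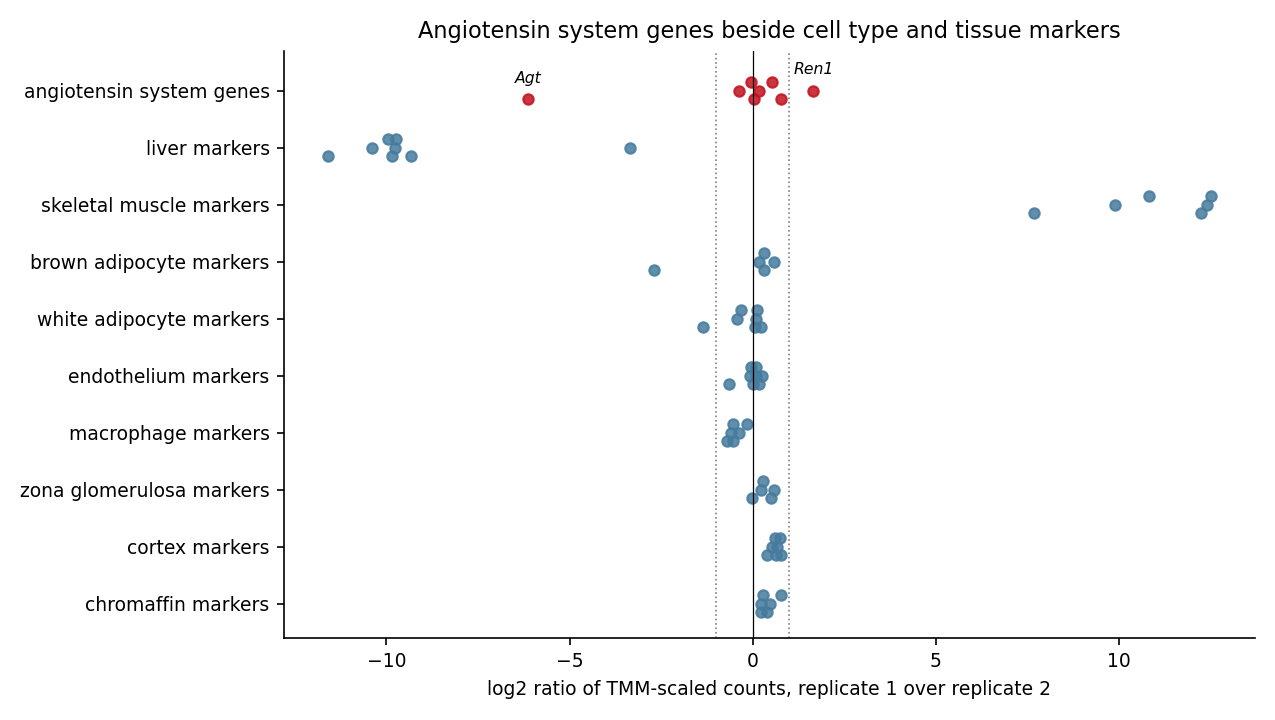
Log2 ratio of TMM-scaled counts, replicate 1 over replicate 2, of the angiotensin system genes (top row) and of marker genes of 9 tissues or cell types, 1 point per gene with at least 10 counts. Liver markers lay between -11.59 and -3.34 and cortex markers between 0.39 and 0.79, with Agt at -6.13 on the liver side and Ren1 at 1.66 past the cortex markers.

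The transcripts on which the reads were placed differed between the quantifications most for Agtr2 and Agtr1a. The leading transcript, that with the highest mean share of the gene's TPM, was the same in both quantifications for 7 of 8 members with at least 10 counts, against 80.2% of all such genes. Among genes with several transcripts that share was 73.8%. Agt, with a single listed transcript, could not differ and is among the 7. The exception among the 8 was Agtr2. Its full-length transcript Agtr2-201 (3283 nt) held 35.7% of the gene's TPM in replicate 1 and 47.5% in replicate 2 in the first quantification, and all of it in the second. The remaining 64.3% and 52.5% were on Agtr2-202, a non-coding model of 314 nt, although it had only 70.4 and 49.1 counts against 579.62 and 656.91 on Agtr2-201. By length-scaled level Agtr2-202 was at 9.58 and 6.73 TPM, and Agtr2-201 alone was at 5.33 and 6.08 TPM in the first quantification.

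Agtr1a showed the reverse pattern. Agtr1a-201, which holds the whole coding sequence, took 87.4% and 88.3% of TPM in the first quantification but 56.5% and 54.7% in the second. Agtr1a-206, a partial model of 445 nt with 61 coding bases, took 0.92% and 0.54% in the first and 40.4% and 41.5% in the second. In counts Agtr1a-206 had 17.3 and 4.94 in the first quantification and 534 and 275 in the second, while Agtr1a-201 had 9964 and 4909 in the first and 10028 and 4899 in the second. Of the 401 distinct stretches of 31 bases in Agtr1a-206, 117 were in no other Agtr1a transcript. The counts on the coding transcript were thus close between the quantifications. The gene's TPM was lower in the first, where that of most genes was lower too. Its ratio of first to second TPM was 0.725 and 0.693 of the median ratio, within 2-fold.

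The other members had smaller differences. Agtr1b-201 took 72.0% in replicate 1 and all of the TPM in replicate 2 in the first quantification, against 60.4% and 77.2% in the second, and the rest was on Agtr1b-202, of whose 1603 stretches of 31 bases only 19 were its own. Both Agtr1b models hold the same coding length of 1077 bases. Agtrap-201 (3996 nt) took 65.0% and 73.8% in the first and 53.4% and 55.5% in the second, with the non-coding Agtrap-203 (621 nt) at 31.9% and 26.2% in the first and 46.6% and 44.5% in the second. Atp6ap2-201 took 97.7% and 97.3% in the first and 98.3% and 97.9% in the second. Agt has a single listed transcript.

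**Figure D5:**
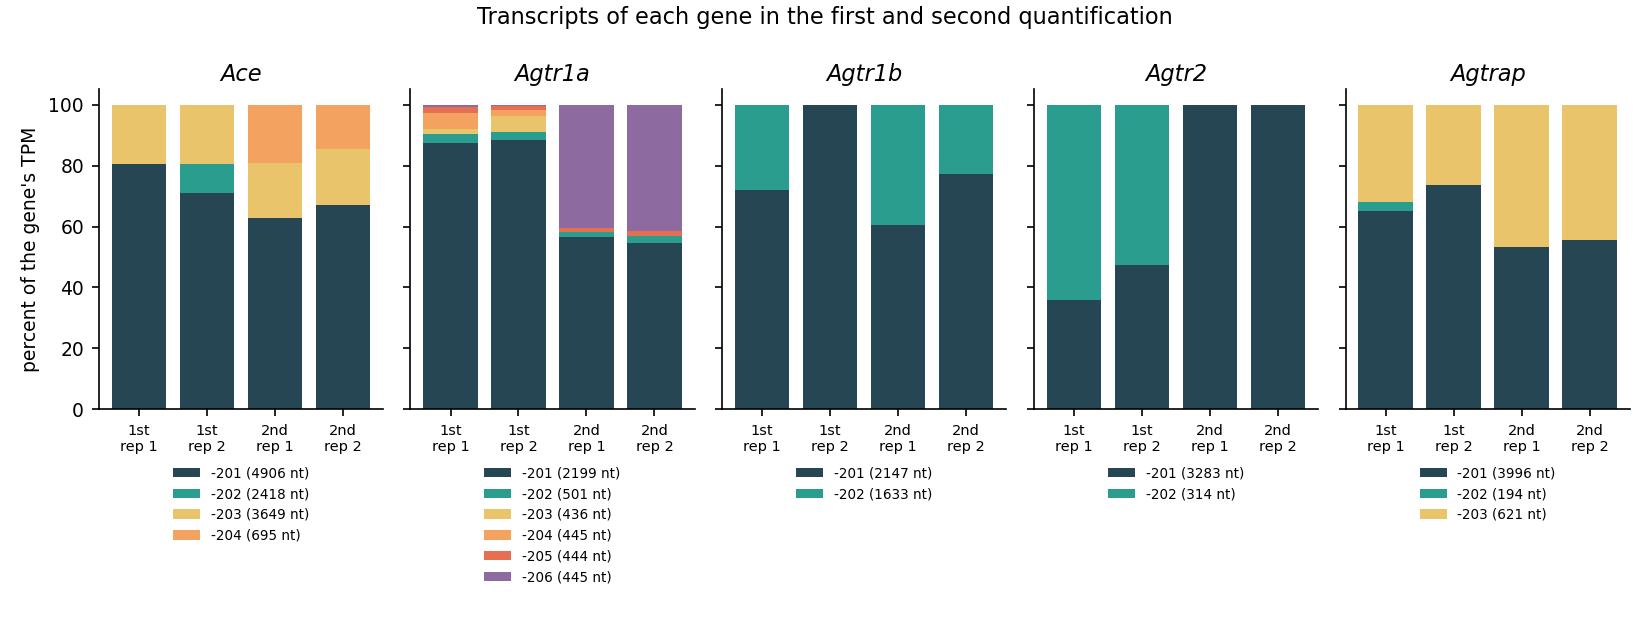
Percent of each gene's TPM on each of its transcripts, as stacked bars that sum to 100, for both libraries in the first (1st) and second (2nd) quantification. Agtr2-202 took 64.3% and 52.5% in the first quantification and 0% in the second, and Agtr1a-206 took 40.4% and 41.5% in the second.

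Between the quantifications the level of most genes differed by a common factor. The median ratio of first to second TPM over 12728 nuclear protein-coding genes was 0.579 in replicate 1 and 0.603 in replicate 2. Divided by that median, 1 member was at least 2-fold apart in both libraries, Agtr2 at 2.99-fold and 2.36-fold, against 3.19% of 19041 genes. Agtr1a was at 0.725 and 0.693 of the median ratio and Agtrap at 0.820 and 0.756. Agtr1b, at 1.00 and 0.961, Ren1, at 0.932 and 0.940, Ace, at 0.869 and 0.986, Atp6ap2, at 1.15 and 1.14, and Agt, at 1.24 and 1.15, were near it. The counts of Agtr2 were closer than its TPM, and those in the first quantification were 1.02 and 1.04 times those in the second.

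Other genes of the system were read from lists made with earlier results of these data known. Their counts stand against the shares over all features, which were 54.1% of nuclear protein-coding genes detected, and 3.86% of compared genes at least 2-fold higher and 10.3% at least 2-fold lower in replicate 1. Of 16 genes listed as angiotensin peptidases, not all of them known to cut these peptides, 12 were detected in both libraries. Among the 13 compared, none was at least 2-fold higher in replicate 1 and 1 was lower, with a median log2 ratio of -0.04. Ctsb, cathepsin B, was at 268 ± 26.8 TPM, Ctsd, cathepsin D, at 256 ± 44.5 TPM, the aminopeptidase Lnpep at 32.1 ± 5.68 TPM and the aminopeptidase Rnpep at 17.4 ± 1.24 TPM (SD, n = 2). The lower gene was Anpep, aminopeptidase N, with 2.93 TPM in replicate 1 against 21.4 TPM in replicate 2, the side of the liver markers. Of 8 related receptors and substrates, 4 were detected, and the median ratio of the 5 compared was 0.03. The kininogen genes Kng1, at 0.74 and 250 TPM, and Kng2, at 3.46 and 32.2 TPM, were the 2 of 5 compared that were at least 2-fold lower in replicate 1, also the side of the liver markers, while Igf2r was at 25.4 ± 3.43 TPM and Sort1 at 13.4 ± 1.85 TPM.

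Of 21 genes listed for AT1 receptor signalling, not all of them downstream steps of it, 20 were detected. Of 21 compared, 0 were at least 2-fold higher and 0 lower in replicate 1, against 3.86% and 10.3% of all genes compared. The median log2 ratio was 0.07. They were led by Gabarap, which binds the AT1 receptor, at 120 ± 6.56 TPM, Rgs2, a brake on Gq signalling, at 90.2 ± 28.7 TPM, the calcium release channel Itpr1 at 42.5 ± 7.28 TPM and the calcium channel Cacna1h at 32.8 ± 5.35 TPM. Of 8 genes of aldosterone output, 7 were detected, with a median ratio of 0.11. Cyp11b2, aldosterone synthase, had 59.0 TPM in replicate 1 against 42.7 TPM in replicate 2, with a log2 ratio of 0.23, below the 0.78 of Agtr1a. Star, which brings cholesterol into mitochondria, averaged 2553 ± 1008 TPM, and Cyp21a1, which encodes steroid hydroxylase, averaged 1493 ± 712 TPM. Nr4a1, a transcription factor induced by angiotensin II, was at 12.3 and 30.8 TPM, a log2 ratio of -1.65, opposite to Agtr1a, and it was 1 of 2 genes on that list at least 2-fold lower in replicate 1.

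For the prorenin receptor, the subunits of the vacuolar proton pump give the scale. Of 22 listed, 18 were detected, and among 21 compared none was at least 2-fold higher and 2 were lower in replicate 1, against 3.86% and 10.3% of all genes compared, with a median of 0.09. Atp6v0c, the proton-carrying ring subunit, was highest at 115 ± 17.1 TPM, followed by Atp6v1e1 at 87.3 ± 18.8 TPM, Atp6v1h at 59.2 ± 18.5 TPM and Atp6v0b at 59.0 ± 10.5 TPM. Atp6ap2, at 15.5 ± 1.45 TPM, was below 16 of the 22 subunits by mean TPM and above the other 6. It was below those 16 in both libraries, and above 5 of the 6 in both.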

How the data were processed

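Total RNA sequencing of 2 adrenal libraries of 1 group was used, with 3 tables per library. Per text files the authors deposited, the tables use mm10 and annotation M21, the first quantification reads a transcriptome alignment, and the second uses read files with an index. Quantifier names, versions and strand settings: not given in the sources used here. Per the file headers, the authors deposited expected counts and TPM per gene and transcript, each transcript's percent of its gene's TPM, the posterior SD of counts, and, in the second, estimated counts and TPM per transcript. TPM is relative to all listed sequences.

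Members were found by symbol in GENCODE M21 and matched on gene identifier, and transcripts of the second quantification were summed per gene. Members and lists were chosen with earlier results of these data known. All 9 members are named. Of each pathway list the 4 highest genes are named, and those at least 2-fold apart with a mean TPM of at least 5. Of marker lists the 2 highest are the rule, and kidney markers at 0, Cyp2e1 and Des were named after their values were seen. Genes overlapping a member are named. Expected counts were rounded to whole numbers. Spike-ins, 0.839% and 0.915% of counts, and entries that are no annotated gene, 8 and 6.73 counts, were left out. TMM factors, 1.09 and 0.920, came from edgeR 4.0.16 on genes with at least 10 counts. DESeq2 1.42.0 size factors, total counts and spike-in totals were alternatives. The 1 group allows no test. Ratio and interval code was tested on simulated data. A floor is 3 counts per library. Symbols, coordinates and transcripts are from GENCODE M21, start windows from RefSeq (GRCm38.p6). Python 3.11.15 and scipy 1.17.1 were used.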

Additional observations from a re-analysis of the deposited data

How the results depend on the processing

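No paired analysis was possible because there is 1 group. The number of members detected was between 5 and 8 under all alternatives, 7 without replicate 1 and 8 without replicate 2. The number at least 2-fold higher in replicate 1 was 1 with TMM and with DESeq2 size factors, and 2 on total counts and on spike-in totals, where Agtr1a joined Ren1. On log2(TPM + 1) it was also 1, but that gene was Agtr1a and not Ren1. The number at least 2-fold lower was 1 with every scaling and 2 with no filter on low counts, where Mas1 joined Agt. Without centring, 2 members, Agtr1a and Agtrap, were 2-fold apart between the quantifications and Agtr2 was not; centring itself makes this change. The number sharing a leading transcript was 7 throughout, and that of members apart between quantifications 1 without either replicate. The order of levels had 2 clear steps in the first quantification and 5 in the second; the cause was not tested. Leaving out a library gives no ratio between libraries. Of 9 mean levels, 7 moved by more than 1 SD in the second quantification and 9 on TPM rescaled over nuclear protein-coding genes. The rescaling multiplies every gene of a library by a common factor. The second quantification was higher at the median of nuclear protein-coding genes, 1.73-fold in replicate 1 and 1.66-fold in replicate 2. These moves of the means thus say little about the members themselves. Leaving out 1 of 2 libraries cannot move a mean by 1 SD and says nothing here. Of 9 ratios, Mas1 included, 5 left their counting interval on total counts and 7 on spike-in totals, by a shift that all genes share. With DESeq2 size factors 0 of 9 did so, and with the second quantification 0 of 8. Depth limits Mas1, with 1 and 8 counts, and Ren1, with 94 and 25.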
